A study of Homo sapiens with 18 samples.

Results

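The 10 genes described here belong to fibroblast growth factor (FGF) signalling and were examined for 2 histone marks in a castration-resistant prostate cancer line. They were 2 ligands (FGF8 and FGF9), 2 receptors (FGFR1 and FGFR2), the transcription factors ETV1, ETV4 and ETV5, and the inhibitors SPRY2, SPRY4 and DUSP6. They were taken by name from 19675 protein-coding genes, and every peak from 3 kb upstream of a gene's start to its end (its window) was assigned to it. Chromatin immunoprecipitation sequencing (ChIP-seq) was done on V16D cells, which were derived from the LNCaP line and made castration resistant, and which were grown in serum-containing medium. Control cells (V16D/CTL) carried the control lentivector, and V16D/H19 cells carried the lentivector that overexpresses the long noncoding RNA H19. Cells were transduced in biological triplicate, so each group had 3 replicates, each with an H3K4me3, an H3K27me3 and an input library. The comparison asks which marks at these genes differ when H19 is overexpressed. All cells came from 1 line, and both groups carry a lentivector.

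FGF ligands bind receptor tyrosine kinases at the cell surface, and the activated receptors signal through RAS and the MAP kinases. The pathway induces the ETS-family factors ETV1, ETV4 and ETV5, and also its own inhibitors: the Sprouty proteins act on the relay to RAS, and DUSP6 is a phosphatase that inactivates MAP kinases. FGF and MAP kinase signalling is known in prostate cancer as a route to growth without androgen receptor activity. H3K4me3 marks the starts of active or poised genes, and H3K27me3 is laid down by the PRC2 complex over silent or poised genes. A start that carries both is called bivalent.

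The H3K4me3 lists held from 20048 to 21934 peaks and the H3K27me3 lists from 55060 to 72289. The median fold over input of a list, the authors' ratio of immunoprecipitated to input signal at a peak, lay between 24.6 and 28.6 for H3K4me3 and between 3.35 and 3.53 for H3K27me3. These files do not hold the read depth behind the lists, which the study gives elsewhere and which was not used here, so the absence of a peak says nothing of the absence of a mark. An H3K4me3 peak lay within 1 kb of the start of all 6 luminal prostate genes examined (KLK3, KLK2, TMPRSS2, KRT8, KRT18 and FOXA1) in all 6 libraries. None was found at the basal genes KRT5, KRT14 and TP63, the leukocyte genes PTPRC and CD3E, COL1A2 or CDH5, while COL1A1 had one in all 6. No peak of either mark lay within 10 kb of H19 in the 12 lists, so the marks gave no check of the group labels.

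H3K4me3 was broader at the starts of SPRY4 and ETV4 in every V16D/H19 library than in any V16D/CTL library, and SPRY4 was the only one of the 10 genes to pass the test across all genes. At both genes the strongest fold lay below the median fold of its list in every library, so these were weak peaks. H3K27me3 covered less of FGF9, ETV4 and ETV5 in every V16D/H19 library than in any V16D/CTL library, most visibly within 1 kb of their starts, but no H3K27me3 difference passed the test. Such lower lengths were common: 15.9% of 5521 genes with an H3K27me3 peak had them, and the median length over the genes tested differed by −0.34 on the log2 scale (V16D/H19 minus V16D/CTL). Relative to that shift the direction at FGF9 turned, to 0.15. FGFR1 and SPRY2 had H3K4me3 over their starts and no H3K27me3 peak in any library. In bulk libraries, a mark in fewer cells and a weaker mark in each cell cannot be told apart, nor can overlapping peaks be placed on the same allele. Both of the following quantities were taken per gene and library, namely the length covered by peaks within the window, and the fold over input of the strongest peak. Each was compared on a log2 scale with limma, among genes with a peak in all 6 libraries and with each library centred on its median, with Benjamini-Hochberg adjustment over all genes tested. For H3K4me3 covered length 31 of 13359 genes passed (0.232%), 21 of them higher and 10 lower in V16D/H19. For the strongest H3K4me3 fold 2 of 13359 passed (0.015%). For H3K27me3 limma called none of 2725 genes (0.0%) in covered length, where 480 had an unadjusted p under 0.05, and none (0.0%) in strongest fold, where 251 did. For single values, a two-sided exact permutation test was used. With 20 ways to divide 6 libraries, its smallest possible p is 0.1. Edges and gaps of peaks, and folds of peaks other than a window's strongest, were chosen after their values were seen. They, and the bases under both marks, have no share over all genes beside them.

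**Figure D1:**
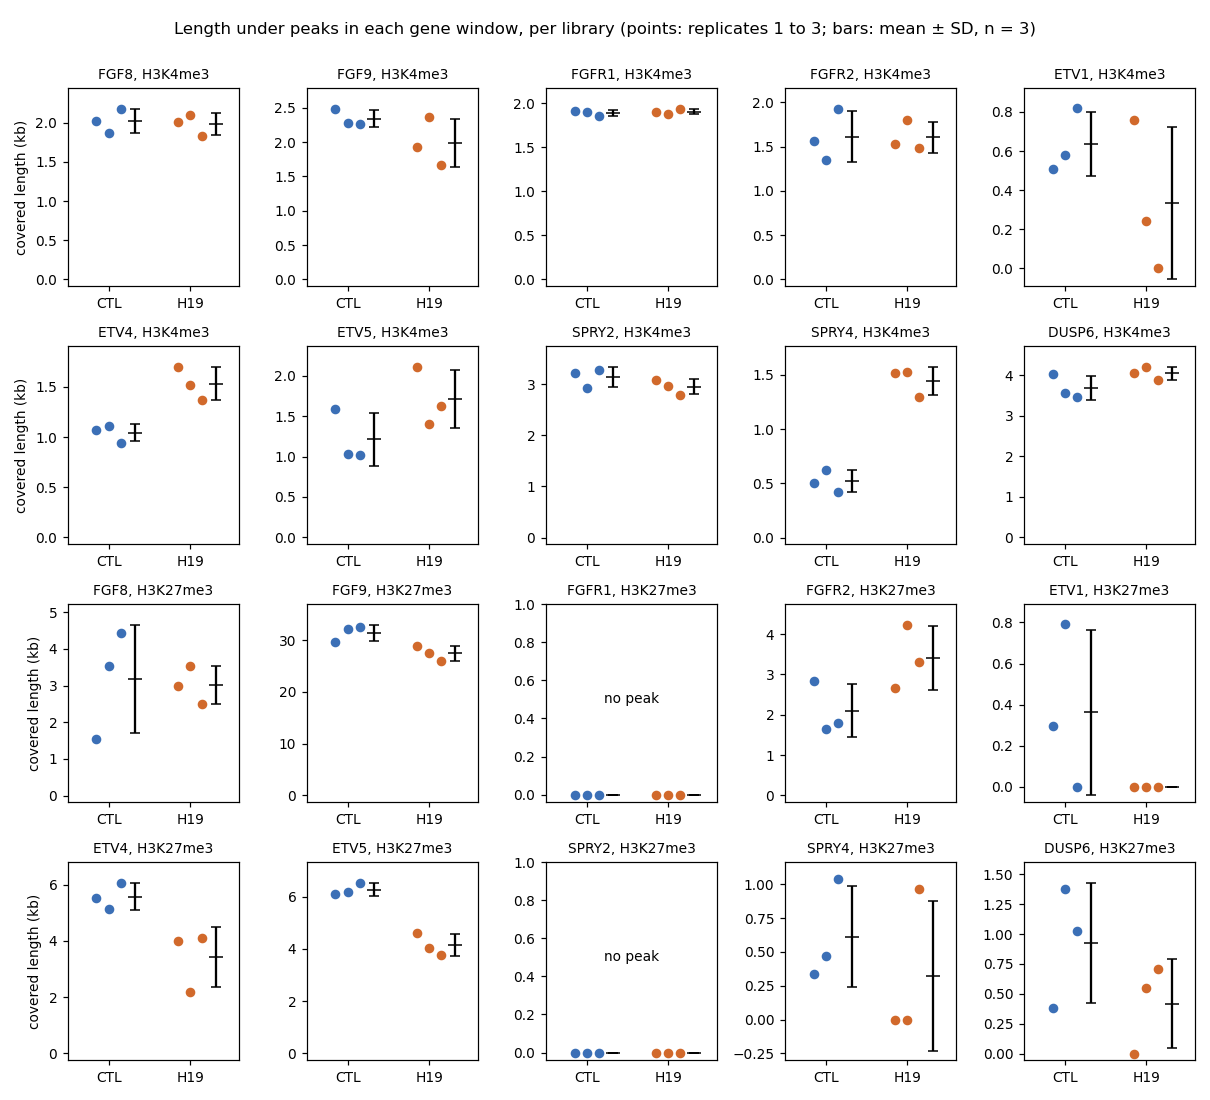
Covered length (kb, vertical axis of each panel, own scale) under H3K4me3 peaks (upper 10 panels) and H3K27me3 peaks (lower 10 panels) in each gene's window, for V16D/CTL (blue) and V16D/H19 (orange). Points are replicates 1 to 3 and bars the mean ± SD (n = 3, some reaching below 0). The 3 V16D/H19 points lie above all V16D/CTL points for H3K4me3 at SPRY4 and ETV4 and below them for H3K27me3 at FGF9, ETV4 and ETV5.

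FGF8, a ligand of embryonic patterning that is also made by prostate tumours, lies on chromosome 10 from 101770109 to 101780369 (GRCh38, minus strand). It had no H3K4me3 peak within 1 kb of its start in 5 of 6 libraries. The strongest H3K4me3 peak of its window had its summit between −2886 and −2807 bases, and the start of the neighbouring gene NPM3 lies 3077 bases upstream of FGF8, 77 bases beyond the window. That peak therefore cannot be assigned to FGF8. A separate H3K4me3 peak inside FGF8, with its summit between +4401 and +4545 bases, had a fold over input of 7.34, 8.75 and 9.83 in V16D/CTL against 12.8, 12.3 and 10.8 in V16D/H19. The 3 V16D/H19 values were the higher ones. H3K27me3 overlapped this internal peak in every library, by 470 to 668 bases in V16D/CTL and by 542 to 678 bases in V16D/H19. Over the window H3K27me3 covered 1557, 3537 and 4447 bases in V16D/CTL and 2993, 3544 and 2501 bases in V16D/H19, so that the groups overlapped. The start of FGF8 itself had no H3K27me3 peak within 1 kb in any library.

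FGF9, a ligand of glial and testis development, lies on chromosome 13 from 21671073 to 21704498 (GRCh38, plus strand). It was the member most widely covered by H3K27me3. H3K27me3 peaks covered 29724, 32071 and 32582 bases of its window in V16D/CTL and 28842, 27595 and 25953 bases in V16D/H19. The means were 31459 ± 1524 and 27463 ± 1449 bases (SD, n = 3; exact permutation p = 0.1), without overlap between the groups. Relative to the median shift of all 2725 genes, −0.34, the limma log2 difference at FGF9 was 0.15 (SE 0.18, adjusted p = 0.726), in the other direction.

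The FGF9 start also differed in the layout of its peaks. In each V16D/CTL library a single H3K27me3 peak ran across the start: from −2406 to +6778, from −3341 to +19040 and from −2897 to +9020 bases. All 3 V16D/H19 libraries had a gap there instead. The upstream peak ended at −461, −545 and −596 bases and the next began at +527, +481 and +215 bases. Within 1 kb of the start, H3K27me3 covered all 2001 bases in the 3 V16D/CTL libraries and 1014, 976 and 1191 bases in V16D/H19. The limma difference in this stretch was −0.61 (SE 0.13, adjusted p = 0.227), in the same direction before and after centring.

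H3K4me3 was present beside the FGF9 start in both groups, mainly as a peak between −1386 and −51 bases. The strongest H3K4me3 fold in the window was 11.7, 13.5 and 15.2 in V16D/CTL against 10.8, 8.92 and 9.27 in V16D/H19. All 3 were lower (limma log2 difference −0.53, SE 0.28, adjusted p = 0.79). These values mix 2 sites, since in V16D/H19 replicates 2 and 3 the strongest peak lay downstream, between +2511 and +3282 bases. The peak beside the start had folds of 10.8, 7.07 and 7.84 in V16D/H19, also below all V16D/CTL values. Within 1 kb of the start the limma log2 difference in fold was −0.73 (SE 0.29, adjusted p = 0.695). The downstream peak did not separate the groups: V16D/CTL had folds of 9.54, 4.88 and 8.83, V16D/H19 of 8.70, 8.92 and 9.27. Over the whole window H3K4me3 covered 2483, 2273 and 2264 bases for V16D/CTL against 1921, 2358 and 1670 bases for V16D/H19, where the groups overlapped. The 2 marks were stacked in V16D/CTL: every H3K4me3 base of the FGF9 window also lay under an H3K27me3 peak. In V16D/H19 the shared length was 1256, 1503 and 1266 bases. FGF9 was thus bivalent in all 6 libraries by overlap, with a shorter overlap in the 3 V16D/H19 libraries. The shared length was not measured over all genes, of which 15.9% of those with an H3K27me3 peak had a lower H3K27me3 length without overlap.

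**Figure D2:**
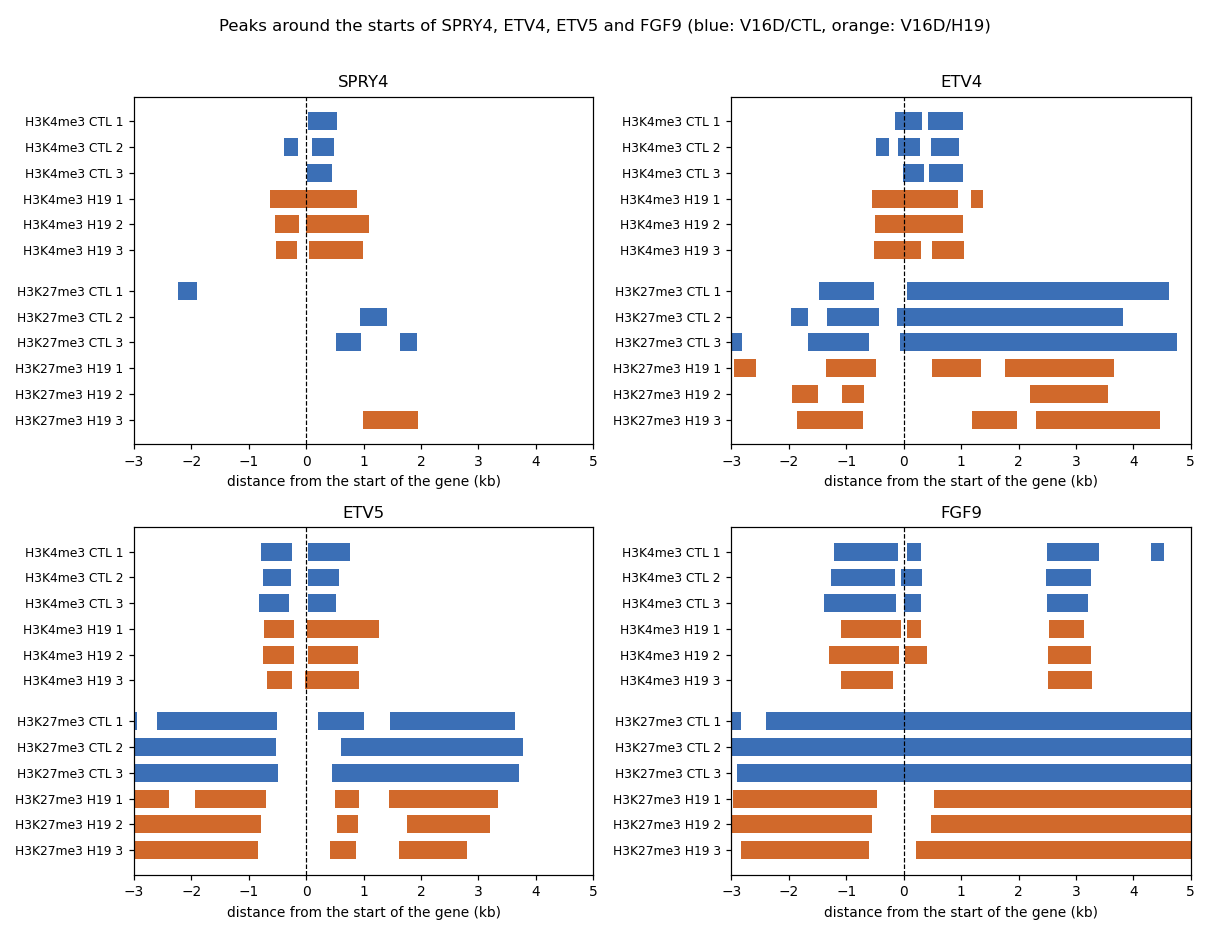
Peaks of both marks from 3 kb upstream to 5 kb downstream of the starts of SPRY4, ETV4, ETV5 and FGF9 (horizontal axis, kb from the start; dashed line, start), with 1 row per library and peaks beyond the range cut off. Blue bars are V16D/CTL and orange bars V16D/H19; H3K4me3 bars extend farther on both sides of the SPRY4 start in V16D/H19, and a gap in H3K27me3 lies over the FGF9 start in the 3 V16D/H19 rows.

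FGFR1, a receptor often active in advanced prostate cancer, lies on chromosome 8 from 38411143 to 38468635 (GRCh38, minus strand). It carried a single H3K4me3 peak over its start and no H3K27me3 peak in any library. The fold over input of that peak was 45.8, 31.5 and 33.5 in V16D/CTL against 67.5, 58.7 and 67.0 in V16D/H19. The lowest V16D/H19 value lay above the highest V16D/CTL value, and the means were 36.9 ± 7.75 and 64.4 ± 4.94 (SD, n = 3; exact permutation p = 0.1). The limma log2 difference of 0.76 (SE 0.27) did not pass the test (adjusted p = 0.677), although only 172 of 13359 genes had a larger one. Its 42 tested neighbours within 5 Mb had a median difference of 0.10, and 27 of them were above 0; the part of the region in the FGFR1 value was not tested. The width of the peak was 1909, 1905 and 1857 bases in V16D/CTL and 1896, 1878 and 1937 bases in V16D/H19, a log2 difference of 0.00 (SE 0.06).

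FGFR2, the receptor of epithelial cells for ligands made by the stroma, lies on chromosome 10 from 121478330 to 121598458 (GRCh38, minus strand). Its H3K4me3 peak over the start had a fold of 25.2, 33.4 and 34.0 in V16D/CTL against 31.0, 31.6 and 24.0 in V16D/H19 (log2 difference −0.15, SE 0.28, adjusted p = 0.964). H3K27me3 peaks over the window covered 2848, 1642 and 1797 bases in V16D/CTL and 2657, 4234 and 3305 bases in V16D/H19. The groups overlapped through V16D/CTL replicate 1. The centred log2 difference was 1.06 (SE 0.35, adjusted p = 0.228), and the uncentred means were 2096 ± 656 and 3399 ± 793 bases (SD, n = 3; exact permutation p = 0.2). One of its H3K27me3 peaks began 111 to 448 bases downstream of the start in all 6 libraries, within reach of the H3K4me3 peak. The marks shared 776, 516 and 647 bases in V16D/CTL and 622, 809 and 396 bases in V16D/H19, so FGFR2 was bivalent by overlap in both groups.

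ETV1, ETV4 and ETV5 form the PEA3 group of ETS factors, which bind DNA at GGAA cores and carry FGF signals into transcription. At ETV4 (chromosome 17, 43527846 to 43546340, minus strand) H3K4me3 peaks covered 1071, 1113 and 946 bases in V16D/CTL and 1701, 1523 and 1373 bases in V16D/H19. The means were 1043 ± 86.9 and 1532 ± 164 bases (SD, n = 3; exact permutation p = 0.1), and the groups did not overlap. The limma log2 difference was 0.54 (SE 0.09) and missed the threshold (adjusted p = 0.0992). In V16D/CTL the mark was broken into 2, 3 and 2 peaks with folds of at most 10.9, 9.48 and 8.06. In V16D/H19 replicates 1 and 2 one peak ran across the start, from −544 to +946 and from −494 to +1028 bases, and replicate 3 had 2 peaks between −509 and +1047 bases. The strongest folds were then 17.0, 14.8 and 12.1, each above all V16D/CTL values (log2 difference 0.57, SE 0.27, adjusted p = 0.76).

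H3K27me3 at ETV4 was lower in V16D/H19 where H3K4me3 was higher. Its peaks covered 5518, 5141 and 6070 bases in V16D/CTL and 4011, 2191 and 4092 bases in V16D/H19, and the means were 5576 ± 467 and 3431 ± 1075 bases (SD, n = 3; exact permutation p = 0.1). Relative to the median shift of all genes the log2 difference was −0.41 (SE 0.31, adjusted p = 0.555), and −0.07 without V16D/H19 replicate 2, the library with the shortest length. In V16D/CTL the downstream H3K27me3 domain began at +55, −111 and −63 bases, practically at the start, and in V16D/H19 it began at +487, +2193 and +1198 bases. Within 1 kb of the start the covered length was 1432, 1685 and 1464 bases in V16D/CTL and 1037, 311 and 300 bases in V16D/H19 (centred log2 difference −1.42, SE 0.53, adjusted p = 0.238). The bases under both marks numbered 858, 937 and 946 in V16D/CTL, with 713 in V16D/H19 replicate 1, and the marks did not overlap in V16D/H19 replicates 2 and 3.

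ETV5 (chromosome 3, 186046314 to 186109089, minus strand) had a pair of H3K4me3 peaks at its start in all 6 libraries. They flanked the start except in V16D/H19 replicate 3, where the downstream peak crossed it, from −27 to +920 bases. The fold of the stronger, downstream peak was 20.5, 14.5 and 15.1 in V16D/CTL against 28.3, 30.6 and 21.2 in V16D/H19, without overlap (log2 difference 0.61, SE 0.27, adjusted p = 0.75). Its far edge lay at +767, +577 and +515 bases in V16D/CTL and at +1262, +904 and +920 bases in V16D/H19. Within 1 kb of the start H3K4me3 covered 1278, 1031 and 1016 bases in V16D/CTL and 1519, 1396 and 1388 bases in V16D/H19, also without overlap. Over the whole window the groups overlapped, with 1585, 1031 and 1016 bases in V16D/CTL and 2109, 1396 and 1628 bases in V16D/H19 (log2 difference 0.50, SE 0.21, adjusted p = 0.481). V16D/CTL replicate 1 was the one that reached into the V16D/H19 range.

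H3K27me3 flanked the ETV5 start on both sides and left the start itself free in both groups. It covered 6083, 6191 and 6533 bases in V16D/CTL and 4596, 4049 and 3781 bases in V16D/H19, and the means were 6269 ± 235 and 4142 ± 415 bases (SD, n = 3; exact permutation p = 0.1). The centred log2 difference was −0.26 (SE 0.20, adjusted p = 0.56). The edge upstream of the start lay at −503, −525 and −492 bases in V16D/CTL and farther out, at −698, −779 and −846 bases, in V16D/H19. The groups did not overlap, but the edge was picked with its values known. Within 1 kb of the start the covered length was 1285, 871 and 1058 bases in V16D/CTL and 719, 589 and 598 bases in V16D/H19 (centred log2 difference −0.43, SE 0.22, adjusted p = 0.36).

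At ETV1 (chromosome 7, 13891229 to 13991425, minus strand) the strongest H3K4me3 peaks were weaker than those at ETV4 and ETV5. Peaks covered 508, 581 and 822 bases in V16D/CTL and 758 and 243 bases in V16D/H19 replicates 1 and 2. No peak was found in V16D/H19 replicate 3, the library with the fewest H3K4me3 peaks (20048). V16D/CTL replicate 2, with 20094 peaks, did have ETV1 peaks, and the cause was not tested. The strongest fold over input was 6.77, 6.46 and 7.0 in V16D/CTL, and 5.80 and 6.84 in the V16D/H19 libraries with a peak. ETV1 was therefore not in the limma test, and its means of 637.0 ± 164 and 333.7 ± 387 bases (SD, n = 3; exact permutation p = 0.3) overlapped. Peaks lay at 2 places: between +48 and +440 bases, and between +1395 and +2180 bases, while RefSeq lists further starts at +176, +719, +723, +1759 and +5013 bases. The starts at +176 and +1759 bases lie within these stretches. The 250 bases before the outermost start held no peak of either mark in any library. H3K27me3 was limited to short peaks in V16D/CTL replicates 1 and 2, of 294 bases in replicate 1 and 793 bases in all in replicate 2.

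SPRY4, an inhibitor of receptor signalling to RAS that the pathway itself induces, lies on chromosome 5 from 142310430 to 142325021 (GRCh38, minus strand). H3K4me3 peaks covered 508, 628 and 425 bases of its window in V16D/CTL and 1515, 1526 and 1297 bases in V16D/H19. The lowest V16D/H19 value was more than double the highest V16D/CTL value, and the means were 520.3 ± 102 and 1446 ± 129 bases (SD, n = 3; exact permutation p = 0.1). The limma log2 difference was 1.48 (SE 0.14, adjusted p = 0.0222), and 8 of 13359 genes had a larger one. Fits without 1 library used fewer samples. The call was lost without V16D/CTL replicate 1 (adjusted p = 0.0842), V16D/H19 replicate 1 (0.125), replicate 2 (0.086) or replicate 3 (0.0547). The log2 difference was then between 1.45 and 1.53. The call was kept without V16D/CTL replicate 2 (adjusted p = 0.0221) or V16D/CTL replicate 3 (0.0399). It was also lost within 1 kb of the start (adjusted p = 0.0708) and with peaks of −log10 q of at least 5 only (adjusted p = 0.102).

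The extension at SPRY4 ran in both directions. The peak downstream of the start ended at +543, +481 and +443 bases in V16D/CTL and at +888, +1095 and +984 bases in V16D/H19. Upstream, only V16D/CTL replicate 2 had a peak, from −385 to −133 bases, while all 3 V16D/H19 libraries reached farther, to −626, −541 and −525 bases. The start of the antisense gene SPRY4-AS1 lies at −272 bases on the other strand, and histone marks carry no strand, so the upstream part cannot be assigned to one gene. Peak height separated the groups less clearly, and the strongest fold was 14.9, 8.04 and 8.44 in V16D/CTL against 22.6, 13.3 and 10.3 in V16D/H19, with overlap (log2 difference 0.48, SE 0.32, adjusted p = 0.847). That difference was 0.15 without V16D/H19 replicate 1 and 0.72 without V16D/CTL replicate 1. H3K27me3 was sparse, with 334, 468 and 1039 bases in V16D/CTL, none in V16D/H19 replicates 1 and 2, and 963 bases in replicate 3. The 105 tested neighbours of SPRY4 within 5 Mb had a median log2 difference in H3K4me3 covered length of 0.06, and 67 were above 0. In strongest H3K4me3 fold their median was 0.13, with 73 above 0. The part of the region in the SPRY4 values was not tested.

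The stretch into which the H3K4me3 peaks of V16D/H19 reached downstream of the SPRY4 start is shown with promoter stretches of 2 inhibitors that H3K4me3 reached in every library. Sequences are from RefSeq promoters (GRCh38.p14), which matched 5 of the 10 genes (SPRY4, SPRY2, DUSP6, ETV1 and FGFR2), and are printed 5′ to 3′ on the gene's strand. Capitals mark GGAA, the core bound by ETS factors, or TTCC, the same core on the other strand. The SPRY4 stretch is the 250 bases before a second RefSeq start at +774 bases (chr5:142324248-142324497, minus strand), which is +524 to +773 bases from the outermost start. The DUSP6 (chr12:89352502-89352751, minus strand) and SPRY2 (chr13:80341127-80341376, minus strand) stretches are the 250 bases before their outermost starts.
SPRY4: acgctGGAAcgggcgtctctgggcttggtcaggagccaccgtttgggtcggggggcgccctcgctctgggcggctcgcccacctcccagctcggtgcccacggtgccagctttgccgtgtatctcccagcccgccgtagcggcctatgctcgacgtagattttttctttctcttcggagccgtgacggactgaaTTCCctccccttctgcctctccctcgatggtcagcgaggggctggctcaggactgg
DUSP6: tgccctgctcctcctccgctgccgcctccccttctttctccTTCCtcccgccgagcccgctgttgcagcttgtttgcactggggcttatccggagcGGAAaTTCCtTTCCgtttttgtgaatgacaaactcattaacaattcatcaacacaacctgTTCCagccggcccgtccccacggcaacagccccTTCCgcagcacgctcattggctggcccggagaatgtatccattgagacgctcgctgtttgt
SPRY2: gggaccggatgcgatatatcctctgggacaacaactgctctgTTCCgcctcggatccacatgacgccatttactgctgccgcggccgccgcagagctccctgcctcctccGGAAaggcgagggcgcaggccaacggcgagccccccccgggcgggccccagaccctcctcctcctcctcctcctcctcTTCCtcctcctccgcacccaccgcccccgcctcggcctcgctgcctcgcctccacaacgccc

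H3K4me3 peaks covered 20, 0 and 0 of the 250 printed SPRY4 bases in V16D/CTL and all 250 in each V16D/H19 library. For DUSP6 they covered 250, 78 and 72 bases in V16D/CTL and 146, 250 and 250 bases in V16D/H19, and for SPRY2 all 250 in every library. The SPRY4 contrast repeats the downstream edges given above and is no separate result. H3K27me3 peaks covered the printed SPRY4 bases in V16D/CTL replicate 3 only, all 250 of them. The SPRY4 stretch held 22 CpG dinucleotides and SPRY2 23, against a median of 11 over all 35116 RefSeq promoters of that length, and DUSP6 held 16. The core GGAA, on either strand, occurred 2 times in the SPRY4 stretch, 6 times in DUSP6 and 3 times in SPRY2. It is common: 92.7% of the promoters held it, with a median of 3 matches. The longer CGGAA, which contains the core, was found 0 times in the SPRY4 stretch, 3 times in DUSP6 and 2 times in SPRY2, and in 30.3% of all promoters. These are matches of letters only.

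DUSP6, the MAP kinase phosphatase, lies on chromosome 12 from 89347235 to 89352501 (GRCh38, minus strand) and had a broad H3K4me3 domain on both sides of its start. The strongest fold was 33.5, 44.2 and 30.9 in V16D/CTL against 28.3, 27.2 and 22.5 in V16D/H19. All 3 V16D/H19 values were lower (means 36.2 ± 7.05 and 26.0 ± 3.07, SD, n = 3; exact permutation p = 0.1), but the limma log2 difference of −0.53 (SE 0.27) did not pass the test (adjusted p = 0.79). The summits of these strongest peaks lay upstream of the start, between −1830 and −1385 bases. A peak at the start was called apart in V16D/CTL replicates 2 and 3, with folds of 13.6 and 18.7. In V16D/H19 replicate 1 it had a fold of 17.4. Covered length was 4026, 3568 and 3475 bases in V16D/CTL and 4055, 4213 and 3896 bases in V16D/H19 (log2 difference 0.13, SE 0.06, adjusted p = 0.553). The downstream edge of the domain lay at +1338, +1375 and +1315 bases in V16D/CTL and at +1614, +1695 and +1494 bases in V16D/H19, without overlap. Like the other edges given here, it was chosen after its values were seen. H3K27me3 peaks lay only downstream of +1313 bases and covered 385, 1374 and 1026 bases in V16D/CTL and 0, 547 and 710 bases in V16D/H19.

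SPRY2, the other Sprouty inhibitor examined, lies on chromosome 13 from 80335976 to 80341126 (GRCh38, minus strand). H3K4me3 covered 3227, 2919 and 3286 bases in V16D/CTL and 3090, 2964 and 2799 bases in V16D/H19 (log2 difference −0.10, SE 0.06, adjusted p = 0.652). The strongest fold spread widely within groups, with 37.5, 27.2 and 16.5 in V16D/CTL against 40.1, 18.1 and 34.0 in V16D/H19 (log2 difference 0.13, SE 0.34, adjusted p = 0.979). SPRY2 had this broad H3K4me3 domain in all 6 libraries and no H3K27me3 peak in any.

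**Figure D3:**
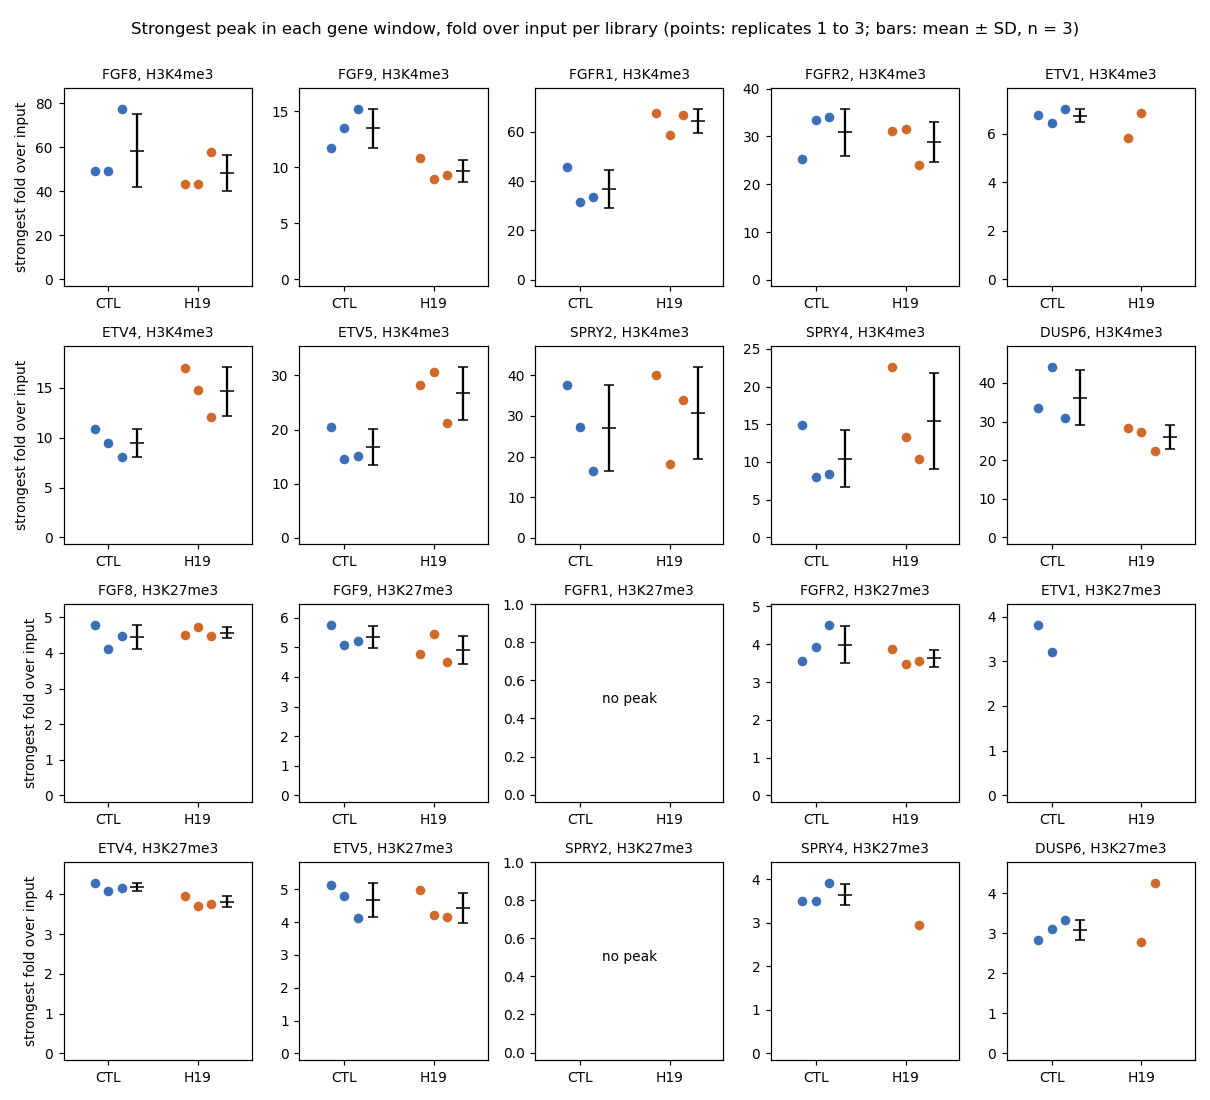
Fold over input of the strongest peak (vertical axis of each panel, own scale) in each gene's window for H3K4me3 (upper 10 panels) and H3K27me3 (lower 10 panels), V16D/CTL in blue and V16D/H19 in orange. Points are replicates 1 to 3, libraries without a peak have no point, and bars are the mean ± SD where all 3 replicates had a peak (n = 3); the groups are apart for H3K4me3 at FGFR1, ETV4 and ETV5 (higher in V16D/H19) and at FGF9 and DUSP6 (lower).

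Counted over the 10 genes, H3K4me3 covered length was higher without overlap in 2 (SPRY4 and ETV4), where 8.33% of 14254 genes with an H3K4me3 peak were, and lower in none, where 5.88% of genes were. Within 1 kb of the start it was higher in 3 (SPRY4, ETV4 and ETV5; 5.91% of 12639 genes) and lower in none (3.92%). The strongest H3K4me3 fold was higher in 3 of the 9 genes with peaks in all libraries (FGFR1, ETV4 and ETV5; 7.29% of genes) and lower in 2 (FGF9 and DUSP6; 3.87%). For H3K27me3, 8 of the 10 had a peak in at least 1 library. Covered length was lower without overlap in 3 of the 8 (FGF9, ETV4 and ETV5), where 15.9% of 5521 genes were, and higher in none (2.41%). Lower H3K27me3 lengths were thus more frequent than higher ones among all genes, before centring. Within 1 kb of the start it was lower in the same 3 of 5 genes with a peak there (12.7% of 3020 genes) and higher in none (1.13%). The strongest H3K27me3 fold was lower in 1 of 5 (ETV4, 4.29, 4.08 and 4.16 against 3.97, 3.72 and 3.77; 17.9% of genes) and higher in none (2.35%).

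No member had a peak within 1 kb of its start in all libraries of one group and in none of the other, for H3K4me3 (0.372% of genes did) or for H3K27me3 (2.25%). Both marks overlapped at 5, 5 and 6 members in V16D/CTL and at 5, 4 and 6 members in V16D/H19. The share of all genes with such an overlap was not measured, so no result about the members is read from these counts. DUSP6 in V16D/CTL replicate 3 and SPRY4 in V16D/H19 replicate 3 were counted on 3 shared bases each. Over the members tested, the median log2 difference was 0.00 for H3K4me3 covered length and 0.13 for the strongest H3K4me3 fold, beside 0.00 and −0.01 over all genes. The fold median was 0.30 over 8 members without FGF8, whose strongest peak lies beside NPM3. For H3K27me3 the 5 members tested had medians of 0.15 in covered length and −0.05 in strongest fold, beside 0.02 and −0.01.

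**Figure D4:**
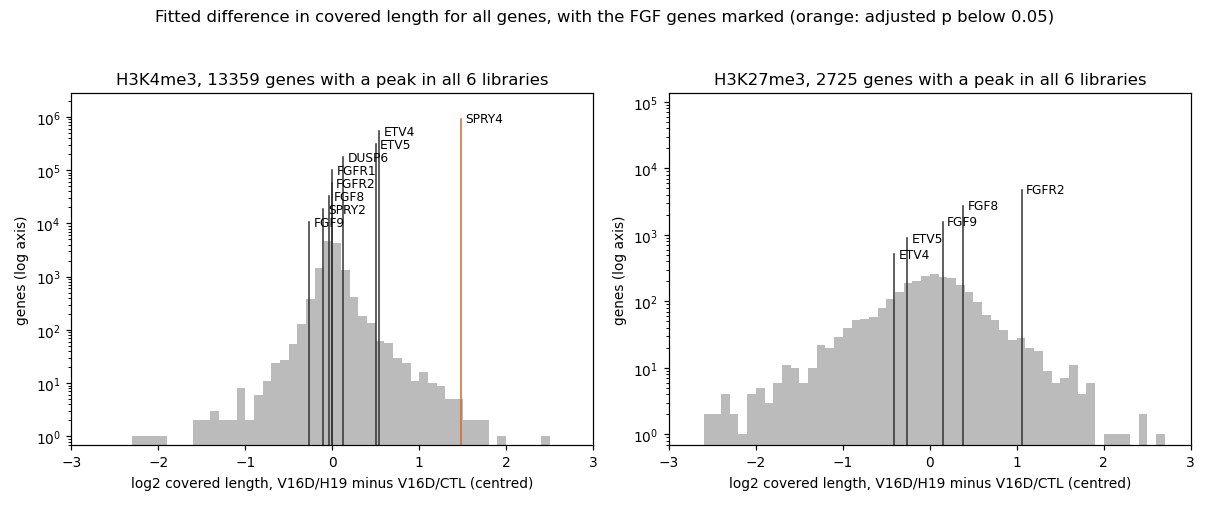
Number of genes (vertical log axis) by fitted log2 difference in covered length, V16D/H19 minus V16D/CTL after centring (horizontal axis), for 13359 genes with H3K4me3 (left) and 2725 with H3K27me3 (right); vertical lines mark the FGF genes tested and their heights carry no value. SPRY4 (orange, adjusted p = 0.0222) lies at 1.48 in the tail of the H3K4me3 histogram, ETV4 lies at 0.54, ETV5 at 0.50, and for H3K27me3 FGFR2 lies at 1.06.

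The deposited tables of differential sites, which list sites but hold no replicate values, named ETV1, ETV4 and ETV5 for H3K4me3, 3 of 10 members where 9.51% of genes with a peak were named. For H3K27me3 they named FGF9, ETV4 and ETV5, 3 of 8 members where 10.9% of genes were. The tables come from these same libraries, and the 10 genes were chosen with earlier results of these data known. These counts are therefore not independent support. All 6 sites were annotated as promoters. The authors' mean concentration, a log2 of normalized reads, went from 6.02 in V16D/CTL to 7.03 in V16D/H19 at the ETV5 H3K4me3 site (chromosome 3, 186107826 to 186109266). At the ETV4 H3K4me3 site (chromosome 17, 43545289 to 43546884) it went from 5.9 to 6.72. At the ETV1 site (chromosome 7, 13988946 to 13991960), which had a peak in 5 of 6 libraries, it went from 5.31 to 4.17. The H3K27me3 means went from 7.3 to 6.56 at ETV4, from 6.87 to 6.27 at ETV5 and from 9.66 to 9.41 at FGF9. SPRY4 was not among the listed H3K4me3 sites.

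A further 53 genes of the pathway were examined as lists of ligands, receptors, relay proteins, feedback inhibitors and transcription targets. Of these, 38 had an H3K4me3 peak and 13 an H3K27me3 peak in all 6 libraries and entered the limma test, which called none of them; 6 and 3 had an unadjusted p under 0.05 in covered length. Of the 46 with an H3K4me3 peak in any library, 8 had a higher covered length without overlap in V16D/H19 (8.33% of all genes with a peak did) and 4 a lower one (5.88%). Of the 28 with an H3K27me3 peak, 1 was higher (2.41% of all genes) and 2 were lower (15.9%). The strongest H3K4me3 fold was higher without overlap in 6 of the 38 (7.29% of all genes) and lower in 3 (3.87%). The strongest H3K27me3 fold was higher in none of the 13 (2.35%) and lower in 4 (17.9%). Among 20 other ligands, 15 had an H3K4me3 peak and 4 were higher in covered length without overlap (FGF5, FGF17, FGF18 and FGF20; 8.33% of all genes), none lower (5.88%). FGF5, a ligand of the hair cycle, had no H3K4me3 peak in V16D/CTL and 664, 907 and 853 bases in V16D/H19, over its start in all 3 libraries with folds of up to 6.85, 9.76 and 6.80. FGF18, a ligand of skeletal growth, had 0, 236 and 520 bases in V16D/CTL and 942, 623 and 852 bases in V16D/H19. These were weak peaks, below the median fold of their lists. FGF23, a hormone-like ligand of phosphate balance, had 832, 1340 and 2805 bases of H3K27me3 in V16D/CTL and 0, 786 and 462 bases in V16D/H19. These lengths sum peaks at several places that differed between libraries. Only between +9401 and +11023 bases did all 3 V16D/CTL libraries have a peak, and V16D/H19 replicate 3 had one there too.

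The same shares of all genes, 8.33% higher and 5.88% lower, apply to the H3K4me3 covered lengths of the other lists. Of the 9 other feedback inhibitors, SPRED3 had a higher length, with 505, 206 and 339 bases in V16D/CTL and 1153, 843 and 508 bases in V16D/H19, though the start of GGN lies in its window. DUSP4 and IL17RD were lower, DUSP4 with 6884, 6665 and 6568 against 6281, 6449 and 6523 bases. DUSP5, another MAP kinase phosphatase, had short H3K27me3 peaks of 356, 358 and 518 bases in V16D/CTL and none in V16D/H19. All 12 relay genes had H3K4me3, with HRAS and MAP2K2 higher in covered length and none lower without overlap. HRAS had 3400, 3341 and 3311 bases in V16D/CTL and 3845, 3469 and 3557 bases in V16D/H19. The fold of its peak over the start went the other way, with 79.6, 79.1 and 69.8 in V16D/CTL against 50.4, 48.0 and 41.7 in V16D/H19, also without overlap. FRS2, the adaptor that links FGF receptors to RAS, had 1024, 465 and 1100 bases of H3K27me3 in V16D/CTL and 2020, 2127 and 1541 bases in V16D/H19, from +37998 bases onward inside the gene. Of 5 other receptors and co-receptors, FGFRL1 had a higher H3K4me3 covered length and FGFR4 a lower one. FGFR4 had 838, 811 and 837 bases in V16D/CTL and 796, 800 and 629 bases in V16D/H19, while the fold of the same peak was higher without overlap, with 13.8, 12.4 and 20.4 in V16D/CTL against 23.6, 48.2 and 32.9 in V16D/H19. Of 7 transcription targets, FOSL1 had a lower H3K4me3 length, with 1132, 1274 and 1372 bases in V16D/CTL and 1010, 961 and 1023 bases in V16D/H19.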

How the data were processed

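H3K4me3 and H3K27me3 ChIP-seq of V16D/CTL and V16D/H19 cells was analysed from 12 deposited peak lists, and samples were grouped by their titles. The 6 inputs served the authors in peak calling and were not analysed here. Peak calling by the authors used MACS2, library by library with the matching input, narrow for H3K4me3 and broad for H3K27me3, on hg38 (GRCh38) per the submitters' processing notes. Each deposited list gives a fold over input (a linear ratio, at the summit for narrow and averaged for broad peaks) and, as −log10, a q-value and a p-value. The 2 deposited tables made by the authors with DiffBind and ChIPseeker list differential sites with a log2 concentration per group. Their fold changes, p-values and FDR are the authors' own comparisons and were not used. Peak lists lengthen with read depth, which the study lists per library but these files do not hold. Since it was left out here, the values carry no counting intervals.

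Gene positions were those of RefSeq (GRCh38.p14), with strand from RefSeq promoters or, by symbol, from GENCODE, for 19675 of 20037 protein-coding genes (98.2%). Covered bases and the strongest fold over input were measured per gene window. Genes with a peak in all 6 libraries were fitted with limma (version 3.58.1, R 4.3.3) on log2 values, which need no pseudocount under that filter, centred on each library's median, and p-values were adjusted by Benjamini-Hochberg. The code was tested on simulated data. With log2 shifts of 1, limma called 99% in H3K4me3 covered length and 36.5% in strongest H3K4me3 fold. For H3K27me3 it called 23.5% in covered length and 100% in strongest fold. With shifts of 0.5 these shares were 76%, 1%, 0% and 96%. A missing call in strongest H3K4me3 fold or H3K27me3 covered length therefore says little about differences of these sizes. Single values were compared with two-sided exact permutation tests (Python 3.11.15). Both tests measure the spread between separately transduced cultures of 1 line. Alternatives were a q-value threshold, lists of equal length, a 50% overlap, a 1 kb window, no centring, a looser filter, the replicate block and leaving out each library. All 10 genes were named. Genes of the other pathway lists were named with values where limma called them or, failing that, where covered lengths did not overlap, at most 4 per mark and direction by size of difference, and the other genes named in counts of 5 or fewer were named after their values were seen. The 10 genes and all lists were chosen with earlier results of these data known. Of the pathway lists, 1 gene is not reported here and was left out of their counts.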

Additional observations from a re-analysis of the deposited data

How the results depend on the processing

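The number of genes called for H3K4me3 covered length, 31, was 20 without centring, 9 within 1 kb of the start and from 5 to 21 without 1 library. For the strongest H3K4me3 fold 2 genes were called, 1 with 50% of the peak in the window, 0 within 1 kb of the start and 0 to 1 without 1 library. For H3K27me3 no gene was called, and leaving out 1 library gave 0 to 2 for strongest fold and 0 to 1 for covered length. The replicate numbers showed little pairing, since deviations of same-numbered libraries correlated between −0.03 and 0.04. For the strongest H3K4me3 fold the same-numbered library was still the best partner of each V16D/CTL library, at correlations of 0.02 to 0.04. With the replicate block 1 gene was called for H3K4me3 covered length and 1 for H3K27me3 strongest fold, and SPRY4 kept its log2 difference of 1.48 in the paired fit at an adjusted p of 0.0605. The SPRY4 difference was 1.33 with −log10 q of at least 5, 1.45 within 1 kb of the start and from 1.35 to 1.63 without 1 library. The cause of the calls lost within 1 kb, under the stricter threshold and with the block was not tested.

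Without 1 library, members with higher H3K4me3 covered length numbered from 2 to 4 and with lower length from 0 to 1, where 11.1% to 21.5% of all genes were higher and 7.6% to 12.6% lower. For H3K27me3 they numbered from 0 to 1 higher and 3 to 4 lower in covered length (3.21% to 5.85% and 18.4% to 31.0% of all genes), and from 0 to 1 higher and 1 to 2 lower in strongest fold (at least 3.93% and 24.6% of all genes). Without V16D/CTL replicate 1, ETV5 and DUSP6 joined SPRY4 and ETV4 as higher for H3K4me3, where 15.4% of all genes were. With −log10 q of at least 5, the members lower for H3K27me3 went from 3 to 0 in covered length and from 1 to 0 in strongest fold, a threshold at which 20 genes had an H3K27me3 peak in all libraries. The 27 member values that were not called gave 337 values under the alternatives, of which 312 kept their direction, 25 changed sign and 0 were called. Read depth, which these lists do not give, limits what a missing peak can show.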
